A study of Mus musculus with 20 samples.

Results

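Rgs7bp, Nebl, Bmp7, Obp2a, Asic2, Epp13, Prtn3 and Isyna1 were 8 genes with few or no reads in the liver of vehicle-fed female mice and many more in mice fed oral combined contraceptives (OC). They were chosen by symbol from the counts themselves, for low or 0 counts on vehicle, out of 35504 genes listed, of which 23993 had an intact line. The choice set no numerical limit, so the difference between diets is described below with no test. Liver RNA from 20 individual mice was sequenced, 5 mice in each of 4 groups. Sedentary mice ate the vehicle diet (Con.Sed) or the OC diet (OC.Sed), and mice with voluntary wheel running ate the vehicle diet (Con.VWR) or the OC diet (OC.VWR). All were described as female, and no group was a surgical or genetic model in the labels. The hormones in the diet, the dose, the length of treatment, the strain and the age are not given in the sources used here, so OC stands for the combination as a whole. Libraries held 10883936 to 16134618 counts. Levels are CPM, counts scaled to a common library size with TMM factors, which sets libraries but not gene lengths on a common scale.

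The 8 genes belong to different families and are mostly known from organs other than the liver. Rgs7bp anchors R7-type regulators of G protein signalling to the membrane, mainly in neurons, and so helps to set how long Gi/o signals last. Asic2 is a subunit of proton-gated sodium channels of neurons. Nebl (nebulette) binds actin at the Z-disc of heart muscle, and an alternative product of the same gene serves at adhesions of other cells. Bmp7 is a secreted bone morphogenetic protein that acts through receptor kinases and Smad proteins, and it is required for kidney development. Obp2a encodes an odorant-binding lipocalin, a small carrier of lipophilic molecules, and Epp13 encodes epididymal protein 13. Prtn3 (proteinase 3) is a serine protease stored in the granules of neutrophils. Isyna1 makes inositol phosphate from glucose phosphate, the first and rate-limiting step of inositol synthesis.

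In the GENCODE vM21 annotation of GRCm38, the build that mm10 names, all 8 were protein-coding genes. They lay on 6 chromosomes, with Nebl, Bmp7 and Obp2a apart from each other on chromosome 2. Obp2a (ENSMUSG00000062061) spanned chr2:25700043-25703326 and Isyna1 (ENSMUSG00000019139) chr8:70594373-70597290, both on the plus strand. Epp13 (ENSMUSG00000053367) spanned chr7:6252710-6282066 and Prtn3 (ENSMUSG00000057729) chr10:79874476-79883174, both on the plus strand. On the minus strand were Rgs7bp (ENSMUSG00000021719) at chr13:104945904-105054930, Nebl (ENSMUSG00000053702) at chr2:17343909-17731464, Bmp7 (ENSMUSG00000008999) at chr2:172868012-172940321 and Asic2 (ENSMUSG00000020704) at chr11:80880169-81968457. Gene length ran from 2.92 kb for Isyna1 to 1088.3 kb for Asic2.

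Promoter sequences were read from the RefSeq table for GRCm38.p6, which held 7 of the 8 genes with 12 promoters; Bmp7 was not matched. The stretches of 5 genes are shown because they differ in base composition and in the motif matches described in the next paragraph. Each stretch lies within the 250 bases before a RefSeq start, stops before the first annotated exon base, and is written 5′ to 3′ on the gene's own strand. Capitals mark the motif matches described in the next paragraph.
Rgs7bp, chr13:105054931-105055180, minus strand: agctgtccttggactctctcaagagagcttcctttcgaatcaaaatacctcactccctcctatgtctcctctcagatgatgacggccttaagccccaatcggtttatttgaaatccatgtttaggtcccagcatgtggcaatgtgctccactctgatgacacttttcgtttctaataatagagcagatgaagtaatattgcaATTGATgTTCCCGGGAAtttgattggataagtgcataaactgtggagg
Obp2a, chr2:25699824-25700042, plus strand: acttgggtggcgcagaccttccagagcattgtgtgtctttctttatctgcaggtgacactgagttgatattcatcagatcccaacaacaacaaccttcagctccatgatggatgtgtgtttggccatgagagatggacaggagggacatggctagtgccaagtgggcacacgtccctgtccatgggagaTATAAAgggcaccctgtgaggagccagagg
Epp13, chr7:6252460-6252709, plus strand: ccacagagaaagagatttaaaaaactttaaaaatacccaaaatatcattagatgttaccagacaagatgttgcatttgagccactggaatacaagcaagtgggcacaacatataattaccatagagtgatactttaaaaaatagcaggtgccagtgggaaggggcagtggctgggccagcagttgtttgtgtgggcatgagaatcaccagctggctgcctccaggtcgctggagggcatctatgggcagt
Prtn3, chr10:79879417-79879613, plus strand: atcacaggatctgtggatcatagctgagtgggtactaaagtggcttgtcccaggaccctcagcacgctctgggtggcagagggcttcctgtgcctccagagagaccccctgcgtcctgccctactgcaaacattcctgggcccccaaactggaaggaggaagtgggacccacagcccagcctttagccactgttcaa
Isyna1, chr8:70594231-70594372, plus strand: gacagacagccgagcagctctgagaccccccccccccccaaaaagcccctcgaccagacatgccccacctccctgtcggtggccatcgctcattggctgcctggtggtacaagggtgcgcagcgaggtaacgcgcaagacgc

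In all, 12 motifs were searched on both strands of the 250 bases before each start, and 4 of them had a match in any of the 12 promoters. The oestrogen response element, GGTCA and TGACC separated by any 3 bases, was in 0 of the 7 genes, and in 0.0666% of the 27025 genes in the table. The element shared by glucocorticoid, progesterone and androgen receptors, GNACA and TGTNC separated by any 3 bases, was in 0 of the 7 and in 0.44% of all genes. The nuclear receptor half-site AGGTCA was in 2 of the 7, Nebl and Obp2a, and in 15.8% of all genes; the oestrogen element can overlap it. In Obp2a it lay 12 to 17 bases before the start, beyond the stretch shown. The TATA box TATAAA was in Obp2a, 56 to 61 bases before the RefSeq start, and in 14.3% of all genes. The Rgs7bp stretch held ATCAAT, the HNF6 and CUX motif, and the STAT6-spaced motif, TTC and GAA separated by any 4 bases, as neighbouring matches that did not overlap, against 7.72% and 6.76% of all genes. No match was found for DR1 (AGGTCA repeated after 1 base, which holds AGGTCA), STAT (TTC and GAA separated by any 3 bases), forkhead (TGTTTAC), C/EBP (TTGC and AA separated by any 2 bases), HNF1 (GTTAAT and ATTAA separated by 1 base) or SP1 (GGGCGG). GC content of the 250 bases was 43.2% for Rgs7bp and 64.4% for Isyna1, against a median of 52.4% over all promoters. Isyna1 held 19 CpG and Epp13 held 1 in the promoter shown, against a median of 6. The Prtn3 window lay inside the gene body of the longer GENCODE transcripts. These matches describe letters in a window and were not tested for binding.

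Con.Sed replicate 2 stood apart from the other 19 libraries on the second principal component, and calls or values that it decides are given without it as well. In bulk liver, fewer cells of a type and less RNA per cell cannot be told apart. All 8 genes passed the filter on low counts. In both activities every OC library was above every vehicle library for each of the 8, which is what they were chosen for. Among all tested genes, 7.01% had no overlap of this kind in sedentary mice, 5.44% in running mice and 2.06% in both. Over all 10207 genes tested, 16.3% differed between diets in sedentary mice and 13.2% in running mice at an adjusted p under 0.05 (edgeR quasi-likelihood test, Benjamini-Hochberg). Leaving out OC.Sed replicate 1 lowered the number called in sedentary mice from 1665 to 1023, and leaving out OC.VWR replicate 1 or 3 lowered that in running mice from 1343 to 817 or 835. Of all genes tested, 51 had an OC mean at least 10 times the vehicle mean, and these 8 were among them, while 9 had a vehicle mean at least 10 times the OC mean. The name near-silent held for 5 of the 8, which had a vehicle mean under 1 CPM. Rgs7bp and Bmp7 stood at 1.83 and 1.71 CPM on vehicle. Isyna1 at 6.42 CPM was at the 48.4th percentile of the 14236 genes with a count in any library, which include genes below the filter. On that scale those 3 were low or moderate on vehicle.

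**Figure D1:**
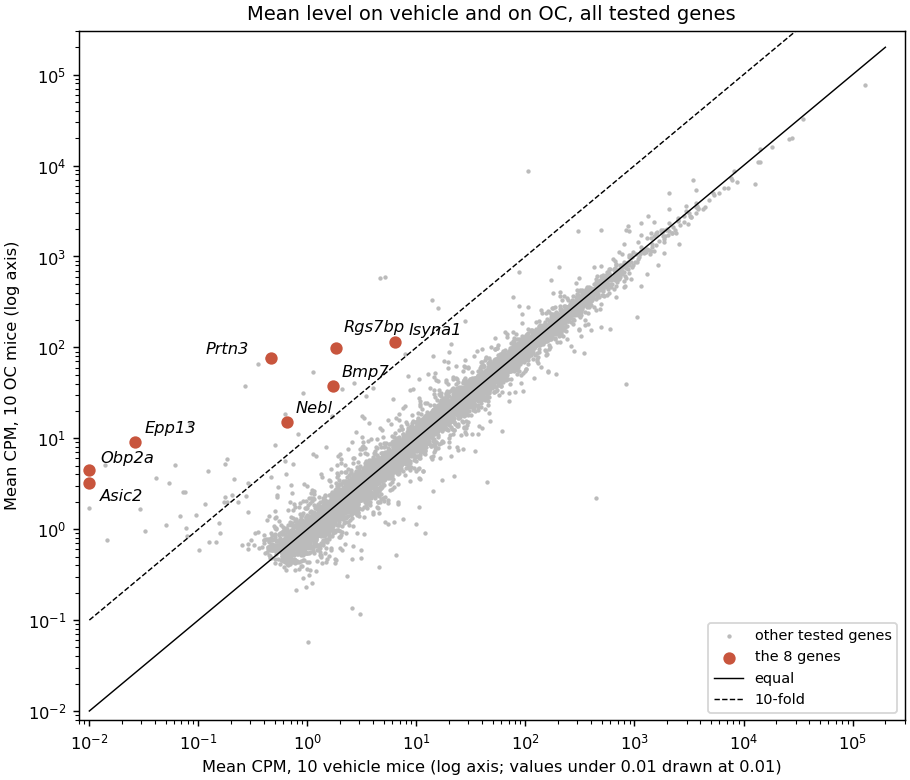
Mean CPM over 10 vehicle mice (horizontal log axis) against mean CPM over 10 OC mice (vertical log axis) for the 10207 tested genes, with the 8 genes in red and values under 0.01 drawn at 0.01. The 8 genes lie above the dashed 10-fold line, Obp2a and Asic2 at the left edge because they had 0 counts on vehicle.

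Obp2a and Asic2 had 0 counts in all 10 vehicle libraries, a state shared by 3 tested genes, the other being Trex2, a 3′ exonuclease gene. Obp2a had 77, 97, 20, 52 and 45 counts in the 5 OC.Sed libraries and 57, 50, 168, 16 and 39 in the 5 OC.VWR libraries. OC.VWR replicate 3 was the highest and OC.VWR replicate 4 the lowest. With a floor of 3 counts over a vehicle group, Obp2a was at least 85.7-fold higher on OC in sedentary mice and at least 110-fold higher in running mice. Without OC.VWR replicate 3 the latter bound was 66.6-fold. Asic2 had 25, 40, 16, 14 and 41 counts in OC.Sed and 91, 17, 60, 42 and 117 in OC.VWR. The 2 activity groups overlapped for Asic2, and its bounds were at least 40.0-fold and at least 109-fold. The floor and the intervals cover counting error only.

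Epp13 had 0 counts in 9 of 10 vehicle libraries and 3 counts in Con.Sed replicate 5. On OC it had 67, 87, 104, 83 and 166 counts in OC.Sed and 138, 89, 266, 62 and 202 in OC.VWR. The ratio in sedentary mice was 149-fold (exact 95% interval 50.8 to 726), and in running mice Epp13 was at least 253-fold higher. Prtn3 had 1, 3, 8, 6 and 27 counts in Con.Sed and 1, 1, 5, 1 and 4 in Con.VWR. It reached 825, 1046, 455, 332 and 1405 counts in OC.Sed and 1109, 395, 1319, 1161 and 2970 in OC.VWR. Con.Sed replicate 5 was the highest vehicle library for both Epp13 and Prtn3, and still below every OC library. Prtn3 stood at 0.756 ± 0.931 CPM (SD, n = 5) in Con.Sed and 58.9 ± 33.5 in OC.Sed, a fitted fold of 79.2, or 160 without Con.Sed replicate 5. In running mice it was at 0.167 ± 0.132 CPM on vehicle and 94.7 ± 55.2 on OC, a fitted fold of 536.

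Rgs7bp had 1.99, 2.78, 1.69, 1.75 and 2.65 CPM in Con.Sed and 1.77, 1.69, 1.14, 0.795 and 2.07 in Con.VWR. On OC it had 51.9, 72.8, 91.1, 60.0 and 115 CPM in OC.Sed and 99.0, 130, 121, 58.2 and 183 in OC.VWR. The highest vehicle library and the lowest OC library were far apart, and the log2 fold change was 5.18 (SE 0.31) in sedentary and 6.29 (SE 0.33) in running mice. Bmp7 had 1.33, 1.48, 1.76, 1.31 and 1.15 CPM in Con.Sed and 2.15, 1.48, 1.34, 3.10 and 2.0 in Con.VWR. It had 31.99, 37.1, 31.9, 26.6 and 38.1 CPM in OC.Sed and 43.9, 28.3, 49.9, 19.4 and 70.5 in OC.VWR. The OC.Sed mice were close together for Bmp7 and lay within the range of the OC.VWR mice. Its log2 fold change was 4.55 (SE 0.31) and 4.40 (SE 0.29).

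Nebl had 0.497, 1.22, 0.460, 0.657 and 0.530 CPM in Con.Sed and 0.380, 0.494, 0.869, 0.874 and 0.50 in Con.VWR. It had 12.7, 10.9, 19.3, 11.8 and 11.7 CPM in OC.Sed and 12.5, 15.1, 18.9, 12.8 and 25.3 in OC.VWR. Con.Sed replicate 2 was the highest vehicle library for Nebl. The log2 fold change of Nebl was 4.29 (SE 0.29) in sedentary mice, 4.60 without that library, and 4.76 (SE 0.28) in running mice. Isyna1 had 6.13, 11.7, 5.44, 6.06 and 5.12 CPM in Con.Sed and 6.77, 5.44, 4.88, 5.88 and 6.71 in Con.VWR. It had 129, 93.2, 73.5, 59.2 and 153 CPM in OC.Sed and 164, 78.2, 119, 126 and 145 in OC.VWR. Con.Sed replicate 2 was again the highest vehicle library. The log2 fold change of Isyna1 was 3.88 (SE 0.27), or 4.16 without that library, and 4.41 (SE 0.28) in running mice, the lowest fold of the 8 in sedentary mice.

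**Figure D2:**
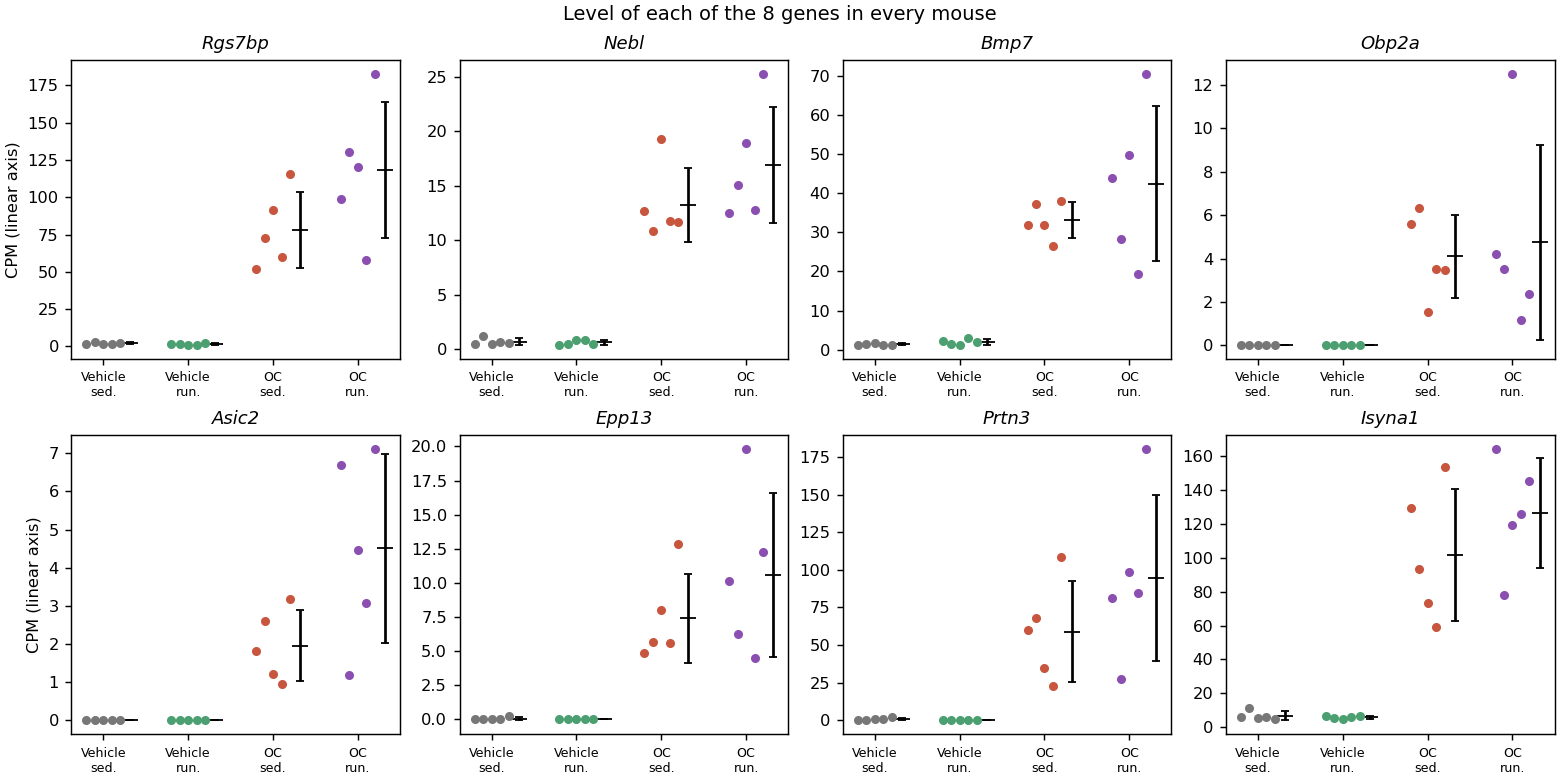
CPM of each of the 8 genes in every mouse, on linear axes of different height, in sedentary (sed.) and running (run.) mice on vehicle or OC. Points are mice and the black bars are the mean and SD of 5 mice; for each gene the 10 OC mice lie above the 10 vehicle mice.

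Between genes, levels are compared per kilobase of exon. On OC, Isyna1 was at 46.8 ± 14.8 CPM per kb (SD, n = 10) and Prtn3 at 44.3 ± 27.1, followed by Rgs7bp at 13.9 ± 5.74, Bmp7 at 9.40 ± 3.60, Epp13 at 8.85 ± 4.77 and Obp2a at 5.94 ± 4.40. Nebl at 0.991 ± 0.305 and Asic2 at 0.758 ± 0.521 CPM per kb were the lowest. Within this order the steps from Prtn3 to Rgs7bp and from Obp2a to Nebl were larger than the SDs of the genes on either side, and the other steps were not. Isyna1 and Prtn3 per kb stood at the 94.0th and 93.7th percentiles on OC, and Asic2 at the 40.4th. These percentiles are over genes with a count in any library and an annotated exon length, including genes below the filter. On vehicle the order per kb was Isyna1 at 2.63 ± 0.808, Bmp7 at 0.425 ± 0.146, Prtn3 at 0.266 ± 0.404, Rgs7bp at 0.259 ± 0.085, Nebl at 0.0425 ± 0.0171 and Epp13 at 0.026 ± 0.0823. There, only the steps from Isyna1 to Bmp7 and from Rgs7bp to Nebl were larger than the SDs, apart from the genes at 0.

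None of the 8 genes passed the test of running against sedentary mice on either diet. On OC, the log2 difference of running over sedentary mice was above 0 for 8 of 8 genes, from 0.20 (SE 0.53) for Obp2a to 1.21 (SE 0.44) for Asic2, with adjusted p from 0.683 to 0.923 (edgeR). Rgs7bp, at 0.60 (SE 0.24), and Asic2 had unadjusted p of 0.0197 and 0.0173. Over all tested genes 0.00% were called in this contrast, and 693 had an unadjusted p under 0.05. The OC libraries used here are the same ones on which the genes were chosen. Without OC.VWR replicate 3 the difference of Obp2a was -0.55, and the 8 genes share the same mice. On vehicle, 5 of the 8 had enough counts to compare, and their differences ran from -2.07 (SE 1.22) for Prtn3 to 0.50 (SE 0.37) for Bmp7, with 0.00% of all genes called and 1414 at an unadjusted p under 0.05. The test of whether the diet difference itself differed by activity gave 1.11 (SE 0.45) for Rgs7bp with an adjusted p of 0.237. For Prtn3 it gave 2.76 (SE 1.28) with an adjusted p of 0.271, and 1.75 without Con.Sed replicate 5. Among all genes 0.00% were called for that interaction, and 1802 had an unadjusted p under 0.05. DESeq2 called 1, 42 and 119 genes in these 3 contrasts and none of the 8. For the interaction it gave NA as the adjusted p of 8905 genes, the 8 among them, so they could not be called there.

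Among OC mice, several of the 8 genes were high or low in the same animals. OC.Sed replicate 5 had the highest value of its group in 6 of the 8 genes, and OC.VWR replicate 5 in 5. OC.Sed replicate 4 and OC.VWR replicate 4 had the lowest value in 4 genes each. The 3 mice with the highest mean deviation, OC.Sed replicate 5 and OC.VWR replicates 3 and 5, also had the lowest share of counts from Alb in their groups, at 6.87%, 6.37% and 6.29%. Alb took 6.29% to 9.32% of counts over all OC libraries and 11% to 14.2% over vehicle libraries. The same 3 mice had the highest scores of all libraries on the first principal component, at 32.4, 36 and 32.8, and OC.Sed replicate 4 had the lowest score of its group and OC.VWR replicate 4 of its own, at 14.8 and 18. The part of the Alb share and of this component in the result was not tested.

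Over the 28 pairs of genes, 26 had a Pearson r above 0, with a median of 0.43, after the mean of each group was taken out of log2 CPM in the 10 OC mice. Over all pairs of tested genes, 49.8% had r above 0 and the median was 0.00, and over pairs of the 331 other genes called higher on OC in both activities these were 64.7% and 0.18. Asic2 and Prtn3 were the closest pair, with r = 0.92 (exact permutation within groups, two-sided p = 0.000625, adjusted over 28 pairs 0.0175). Spearman's rho for Asic2 and Prtn3 was 0.82 (exact permutation p = 0.01, adjusted 0.0887), and r was 0.77 without the 2 mice farthest from the median. Asic2 and Isyna1 had r = 0.84 (exact permutation p = 0.00271, adjusted 0.0379) and rho = 0.73 (exact permutation p = 0.0158, adjusted 0.0887), with r = 0.67 without 2 mice. Prtn3 and Isyna1 had r = 0.86 (exact permutation p = 0.00562) and missed the threshold after adjustment at 0.0525, with rho = 0.66 (exact permutation p = 0.0585, adjusted 0.234) and r = 0.64 without 2 mice. No pair passed on rho after adjustment. Nebl and Obp2a had the lowest r at -0.13, and both Rgs7bp with Isyna1, at 0.11, and Nebl with Asic2, at 0.07, were near 0. The pairs share mice and libraries, so they are not independent of each other. The genes were chosen on these same OC libraries, and Asic2 and Obp2a passed the filter through them alone. Each permutation compares a pair with no relation at all, so its p cannot show that a likeness is particular to the pair.

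**Figure D3:**
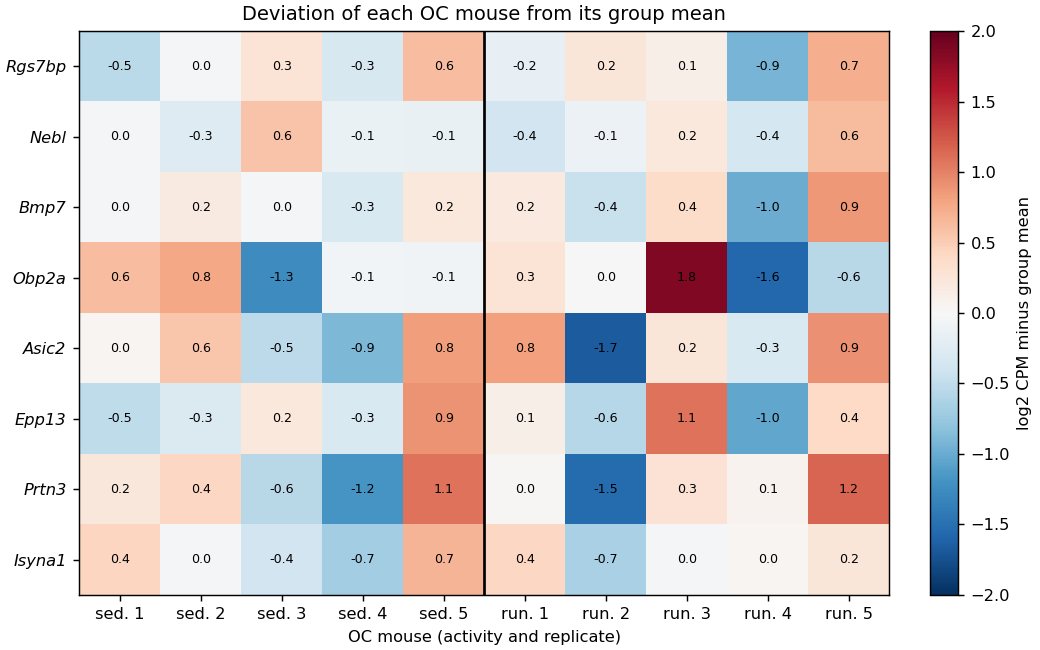
Deviation of log2 CPM from the group mean for each of the 8 genes (rows) in each of the 10 OC mice (columns), red above and blue below the mean of the mouse's own group. The columns of sedentary mouse 5 and running mouse 5 are mostly red and those of sedentary mouse 4 and running mouse 4 mostly blue, while Obp2a and Nebl depart from the other rows in several mice.

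Rgs7, the R7-type regulator that Rgs7bp binds, rose with it. Rgs7 had 3, 0, 1, 0 and 1 counts in Con.Sed and 1, 0, 1, 0 and 3 in Con.VWR. On OC it had 20, 34, 25, 20 and 62 counts in OC.Sed and 31, 14, 53, 34 and 70 in OC.VWR, with no overlap between diets. The log2 fold change of Rgs7 was 4.70 (SE 0.66, adjusted p = 6.88e-05) in sedentary and 5.15 (SE 0.64, adjusted p = 1.34e-05) in running mice. With so few vehicle counts, leaving out Con.Sed replicate 1 gave a ratio of 57.2 (95% interval 15.6 to 476) in sedentary mice, and leaving out Con.VWR replicate 5 a ratio of 81.4 (22.2 to 676) in running mice. Of the 12 genes listed for the R7 complex, 6 had an intact line and 1, Rgs7, passed the filter. With 5 counts over each vehicle group, Rgs7 could be tested only because it was higher on OC. The same holds for Xirp1, Spo11, Plppr3 and Capn8, which are described below. Over all tested genes 9.11% were called higher in sedentary and 7.09% in running mice. Rgs6 had 5 and 8 counts over Con.Sed and Con.VWR, and 0 and 1 over OC.Sed and OC.VWR. In the same order Rgs9 had 32, 44, 21 and 29 counts and Rgs11 had 16, 22, 22 and 45, so these genes did not move in 1 direction. Gpr179 had 1 count over all 20 libraries, and Gpr158, another membrane anchor of R7 proteins, had 0.

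Over 4 lists of other BMP genes, 28 genes were tested. In sedentary mice 3.57% of them were called higher and 25.0% lower on OC, and in running mice 10.7% and 21.4%. Of 8 tested genes of the ligand list, 0 were higher and 2 lower on OC in sedentary mice, and 1 was higher and 3 lower in running mice, with list medians of -0.47 and -0.33 on the log2 scale. Over all tested genes 9.11% were called higher and 7.20% lower in sedentary mice, 7.09% and 6.06% in running mice, and the medians of all genes were -0.01 and 0.01. The ligand list holds Bmp1, a protease that processes procollagen and is no BMP ligand, and Gdf15, a distant family member that acts through the receptor GFRAL. The other 6 ran from -0.59 to -0.34 in sedentary and from -0.91 to -0.14 in running mice, with 2 and 3 called lower; they were set apart after their values were seen. Bmp10, a ligand that circulates in blood, was lower in running mice by a log2 fold change of -0.91 (SE 0.17, adjusted p = 0.00154) and at -0.45 (adjusted p = 0.0867) in sedentary mice. The other calls in the list were lower for Bmp4 (sedentary), Bmp5 (running) and Gdf2 (both) and higher for Gdf15 (running). Leaving out any 1 of 4, 7 and 8 libraries ended the calls of Bmp4, Bmp5 and Gdf15, with adjusted p up to 0.0837, 0.105 and 0.104. For Gdf2 it was 7 libraries in sedentary mice (up to 0.116, without Con.Sed replicate 2) and OC.VWR replicate 3 in running mice (0.0578). With library totals in place of TMM, the calls of Bmp4 (0.0997), Bmp5 (0.112) and Gdf2 (0.126 in sedentary and 0.0674 in running mice) were lost. The call of Bmp10 was kept. Receptors and Smads gave 1 higher and 1 lower of 7 tested in each activity, with medians of 0.03 and -0.11. These were Smad9, a Smad that BMP receptors activate, at 29.6 ± 15.2 CPM in OC.Sed against 11.4 ± 3.86 in Con.Sed, and Smad5, which was lower. The call of Smad9 was lost without any 1 of 5 libraries in sedentary mice and 3 in running mice (adjusted p up to 0.0678 and 0.0712), and that of Smad5 without any 1 of 6 and 13 (up to 0.0998 and 0.146). Library totals also ended the calls of Smad5, at 0.22 in sedentary and 0.261 in running mice.

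Among 7 tested BMP target genes, 0 were higher, and 3 were lower in sedentary mice and 1 in running mice, with medians of -0.20 and -0.37. Hamp encodes hepcidin, the iron hormone of hepatocytes that BMP signals induce. Hamp fell from 1084 ± 341 to 485 ± 201 CPM in sedentary mice (log2 fold change -1.16, SE 0.28, adjusted p = 0.00838) and from 1217 ± 446 to 472 ± 87.5 CPM in running mice (-1.36, SE 0.28, adjusted p = 0.00274). Id4, an inhibitor of DNA binding, was lower in sedentary mice (-1.40, SE 0.37, adjusted p = 0.0137) and at -1.06 (adjusted p = 0.0648) in running mice. Con.Sed replicate 2 had 8.95 CPM of Id4 against 1.85 to 3.31 in the other 4, and without it the values were -0.84 (adjusted p = 0.0445) and -1.06 (adjusted p = 0.00919). The call of Id2 was lost without any 1 of 4 libraries (adjusted p up to 0.0692), among them Con.Sed replicate 2 (0.0508). With library totals in place of TMM it was lost as well (0.0588), while the calls of Hamp and Id4 were kept. Of 6 tested antagonists, Bambi was lower in sedentary mice, and in running mice Chrd, which binds BMPs outside the cell, was higher by 0.73 (SE 0.16, adjusted p = 0.00538) and Tmprss6, a protease that restrains hepcidin, lower at -0.48 (SE 0.10, adjusted p = 0.00351). The call of Bambi was lost without Con.Sed replicate 2 (adjusted p = 0.0511) or OC.Sed replicate 1 (0.0551). The median of the antagonists was -0.01 and -0.10. Without Con.Sed replicate 2, Acvr2b was also called lower in sedentary mice, and in running mice Smad6 was called lower and Fst higher.

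Around Nebl, 8 genes of the nebulin family and the actin thin filament were tested. In sedentary mice 2 were higher and 1 lower, and in running mice 1 was higher, with medians of 0.16 and -0.16. The shares over all tested genes were 9.11% higher and 7.20% lower in sedentary mice, and 7.09% and 6.06% in running mice. Xirp1, an actin-binding Xin-repeat protein of heart and skeletal muscle, had 0.101 ± 0.149 CPM in Con.Sed and 2.66 ± 2.34 in OC.Sed (log2 fold change 4.63, SE 0.87, adjusted p = 0.00114). That value was 5.73 without Con.Sed replicate 1 and 3.96 without OC.Sed replicate 3. The call of Lasp1, which was higher in sedentary mice, was lost without any 1 of 11 libraries (adjusted p up to 0.132), and that of Xirp1 in running mice without any 1 of 10 (up to 0.111). Tpm4, which was lower in sedentary mice, lost its call with library totals as the scaling (0.0758). Neb, the nebulin of skeletal muscle, had 12.3 ± 5.75 CPM in Con.Sed and 25.5 ± 23.5 in OC.Sed, with an adjusted p of 0.121. Actn2, the 1 muscle marker with an intact line, had 318 counts in OC.Sed replicate 3, 97 in Con.VWR replicate 2 and 24 in OC.VWR replicate 5, and 0 to 5 in the other libraries. The same OC.Sed and OC.VWR mice were the highest of their groups for Nebl, Neb and Xirp1, with Neb at 67.5 and 21.8 CPM. Con.VWR replicate 2 had the highest Neb of its group, at 26.2 CPM, and 0.494 CPM of Nebl. In the 4 OC.Sed mice with 0 counts of Actn2, Nebl was at 10.9 to 12.7 CPM, above every vehicle mouse, and its log2 fold change without OC.Sed replicate 3 was 4.12.

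Around Asic2, only Asic5 of 7 related channel genes was tested, and it did not pass in either activity, at -0.23 (adjusted p = 0.436) and 0.00 (adjusted p = 0.992). Asic1, Asic3 and Asic4 had 1, 67 and 0 counts over all libraries. Of the lipocalins, Obp2b, Obp1a, Obp1b, Lcn3, Lcn6, Lcn9, Lcn10 and Lcn11 had 0 counts in every library. Of 7 tested lipocalins, 1 was higher and 1 lower in sedentary mice and 2 were higher in running mice. The medians were -0.10 and 0.21. The shares over all tested genes were 9.11% higher and 7.20% lower in sedentary mice, and 7.09% and 6.06% in running mice. Without Con.Sed replicate 2, Ptgds was also called lower in both activities. Orm3, an acid glycoprotein of plasma, rose from 7.87 ± 5.20 to 32.6 ± 9.06 CPM in sedentary mice (log2 fold change 2.04, SE 0.41, adjusted p = 0.00182) and from 9.45 ± 4.13 to 35.6 ± 9.50 CPM in running mice (1.92, SE 0.40, adjusted p = 0.00274). The Orm genes are near copies of each other, so reads may be split between them by the counting. The call of Apom, lower in sedentary mice, was lost without any 1 of 4 libraries (adjusted p up to 0.0792), and that of Orm1, higher in running mice, without any 1 of 7 (up to 0.114).

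Other genes of neutrophil granules had fewer counts on OC than Prtn3, and several had more on OC than on vehicle. Prtn3 went from 57 counts over all 10 vehicle libraries to 11017 over the 10 OC libraries. Mpo, the myeloperoxidase of the same granules, had 2 counts on vehicle and 66 on OC, and Ctsg, a related protease, 0 and 8. Every OC library held counts of Mpo. Camp, Ngp and Ltf, which later neutrophil stages make, had 4, 15 and 28 counts on vehicle and 32, 62 and 26 on OC. Con.VWR replicate 3 held 26 of the vehicle counts of Ltf, which had 2 in the other vehicle libraries. The summed level of the 9 intact neutrophil markers was 5.597 to 12.1 CPM in Con.Sed and 6.57 to 11.9 in OC.Sed. In running mice it was 3.99 to 6.21 in Con.VWR and 4.93 to 23.0 in OC.VWR, so the diets overlapped in both activities. The medians of this sum were 7.87 CPM in Con.Sed and 6.84 in OC.Sed, and 5.48 in Con.VWR and 13.2 in OC.VWR. Of the 7 tested genes of the neutrophil list, 0 were called in sedentary mice, with a median of -0.28. Without Con.Sed replicate 2, Itgam alone was called there, at 0.96 (edgeR, adjusted p = 0.0111). In running mice S100a8, S100a9 and Itgam were higher, with a median of 0.56. The shares over all tested genes were 9.11% higher and 7.20% lower in sedentary mice, and 7.09% and 6.06% in running mice. Itgam, an integrin of myeloid cells, was at 1.43 ± 0.420 CPM in Con.VWR and 3.97 ± 0.978 in OC.VWR (log2 fold change 1.48, SE 0.27, adjusted p = 0.000782). S100a9, a calcium-binding protein of neutrophils, was at 1.08 ± 0.396 and 3.73 ± 2.50 CPM there (1.78, SE 0.44, adjusted p = 0.0105). The call of S100a8 was lost without any 1 of 7 libraries (adjusted p up to 0.142). Elane, which lies beside Prtn3, was not analysed here because its line was displaced. Slpi, an inhibitor of neutrophil proteases, did not pass in either activity, at -1.22 (adjusted p = 0.208) and 0.91 (adjusted p = 0.424). Without Con.Sed replicate 2, which had 16.3 CPM of Slpi against 0.662 to 2.04 in the other 4, the sedentary value was 0.52 (adjusted p = 0.42).

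Of 10 tested genes of inositol use and turnover, 1 was higher in sedentary mice and 0 in running mice, 0 were lower, and the medians were 0.02 and -0.05. Among all genes 16.3% and 13.2% were called in either direction, so for a list of 10 the counts are near the background. The gene was Cdipt, which joins inositol to a lipid to make phosphatidylinositol, at 35.9 ± 4.90 CPM in Con.Sed and 50.4 ± 4.054 in OC.Sed (log2 fold change 0.49, SE 0.10, adjusted p = 0.00178). In running mice Cdipt was at 0.27 (adjusted p = 0.0633, or 0.033 without Con.Sed replicate 2). Impa1, the phosphatase that releases inositol from the product of Isyna1, was at 75.3 ± 7.53 CPM in Con.Sed and 75.1 ± 5.42 in OC.Sed.

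For each of the 8, the 3 nearest genes with intact lines on either side gave 48 neighbours, of which 25 were tested. In sedentary mice 5 of the 25 were higher and 2 lower on OC, with a median of 0.08. In running mice 4 were higher and 1 lower, with a median of 0.09. Of all tested genes, 9.11% were called higher and 7.20% lower in sedentary mice, and 7.09% and 6.06% in running mice. Spo11, the meiotic DNA-breaking enzyme, lies 37.4 kb beyond the start of Bmp7 and had 6 counts over Con.Sed and 107 over OC.Sed. Single libraries overlapped, since Con.Sed replicate 5 had 0.441 CPM and OC.Sed replicate 1 had 0.364. Its log2 fold change in sedentary mice was 3.87 (SE 0.99, adjusted p = 0.0114), or 3.18 without OC.Sed replicate 5. Without Con.Sed replicate 5, which held 5 of the 6 vehicle counts, the ratio for Spo11 was 77.2 (95% interval 13.6 to 3076). In running mice Spo11 had 3 counts on vehicle, all in Con.VWR replicate 1, against 263 with the contraceptive diet, which gave a ratio of 87.8 (29.7 to 429; adjusted p = 0.000288), and at least 68.4 without that library.

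Inside an antisense gene described below and 3.41 kb beyond Obp2a lies Bmyc, a short member of the Myc family. It rose from 3.03 ± 0.843 to 8.61 ± 2.15 CPM in sedentary mice (log2 fold change 1.51, adjusted p = 3.89e-05) and from 3.08 ± 0.367 to 6.70 ± 1.48 CPM in running mice (1.12, adjusted p = 0.000779). Tmem98, 58.1 kb from Asic2, fell from 19.4 ± 2.91 to 10.3 ± 1.94 CPM in sedentary mice (-0.91, adjusted p = 0.000386) and from 21.5 ± 2.52 to 11.2 ± 2.68 CPM in running mice (-0.94, adjusted p = 0.000226). Med16 and R3hdm4, near Prtn3, were higher in sedentary mice by 0.61 (adjusted p = 0.00258) and 0.35 (adjusted p = 0.00242) and at 0.09 each in running mice, where they did not pass. Ssbp4, whose end lies 0.2 kb from that of Isyna1 on the opposite strand, was at 0.53 (adjusted p = 0.0349) and 0.60 (adjusted p = 0.0206), and the calls were lost without any 1 of 5 and 4 libraries (up to 0.1 and 0.0602). Gdf15, the BMP-related ligand whose call in running mice was described above, lies 32.1 kb from Isyna1, at 0.97 (adjusted p = 0.227) in sedentary and 1.71 (adjusted p = 0.0424) in running mice. Ccl2, a chemokine gene near Asic2, was at -1.50 (adjusted p = 0.0446) in sedentary mice and at -0.80 (0.209) without Con.Sed replicate 2. The 18 neighbours not called in sedentary mice included Zfp667 beside Epp13, Ptbp1 and Cfd beside Prtn3, and Rae1 beside Bmp7.

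**Figure D4:**
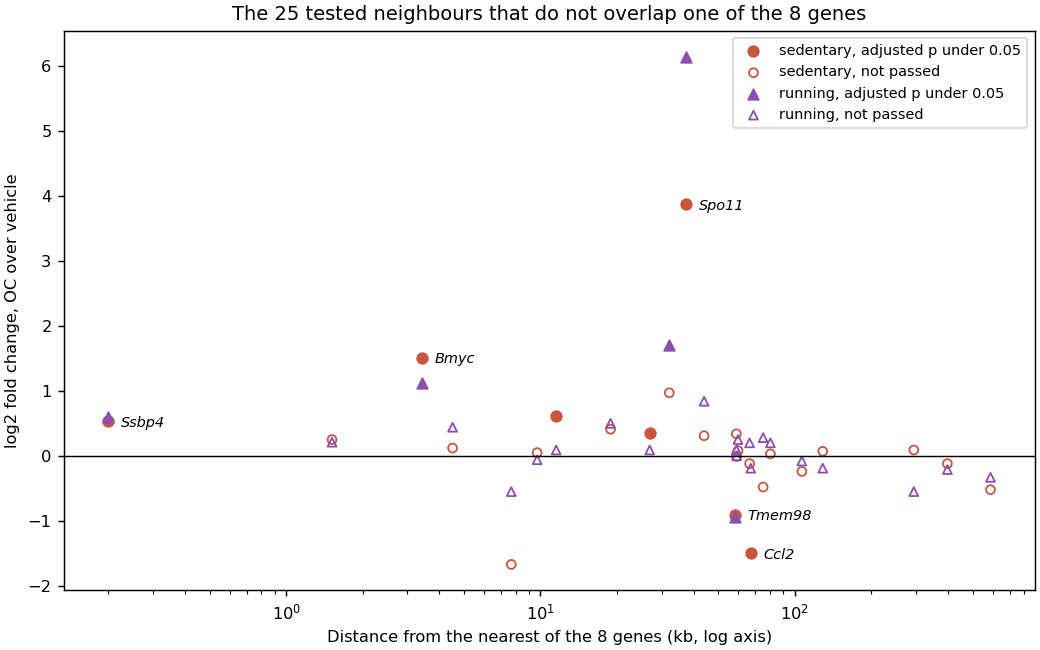
Log2 fold change of OC over vehicle in sedentary (circles) and running (triangles) mice for the 25 tested neighbours, against their distance from the nearest of the 8 genes in kb on a log axis; filled symbols had an adjusted p under 0.05. Spo11 at 3.87 and 6.14 stands above the other neighbours; next come Bmyc at 1.51 in sedentary mice and Gdf15 at 1.71 and Bmyc at 1.12 in running mice.

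Plppr3, which encodes a neuronal membrane protein, overlaps Prtn3 on the opposite strand and is counted apart from the 48. It rose from 0.556 ± 0.205 to 2.52 ± 0.980 CPM in sedentary mice (log2 fold change 2.14, SE 0.41, adjusted p = 0.00133) and from 0.509 ± 0.260 to 3.35 ± 1.77 CPM in running mice (2.71, SE 0.40, adjusted p = 9.39e-05). The library kit marks strand, per the labels' protocols, but the strand setting of the counting is not given in the sources used here, so reads of Plppr3 and Prtn3 may not be told apart. The same holds for Bmyc, which lies inside A230005M16Rik, an antisense gene on the opposite strand, 2.52 kb from Obp2a. A230005M16Rik had 3 and 4 counts over Con.Sed and Con.VWR, and 43 and 41 over OC.Sed and OC.VWR. It did not pass the filter on low counts. The antisense genes inside Nebl and Asic2 had 0 to 5 counts over all libraries.

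**Figure D5:**
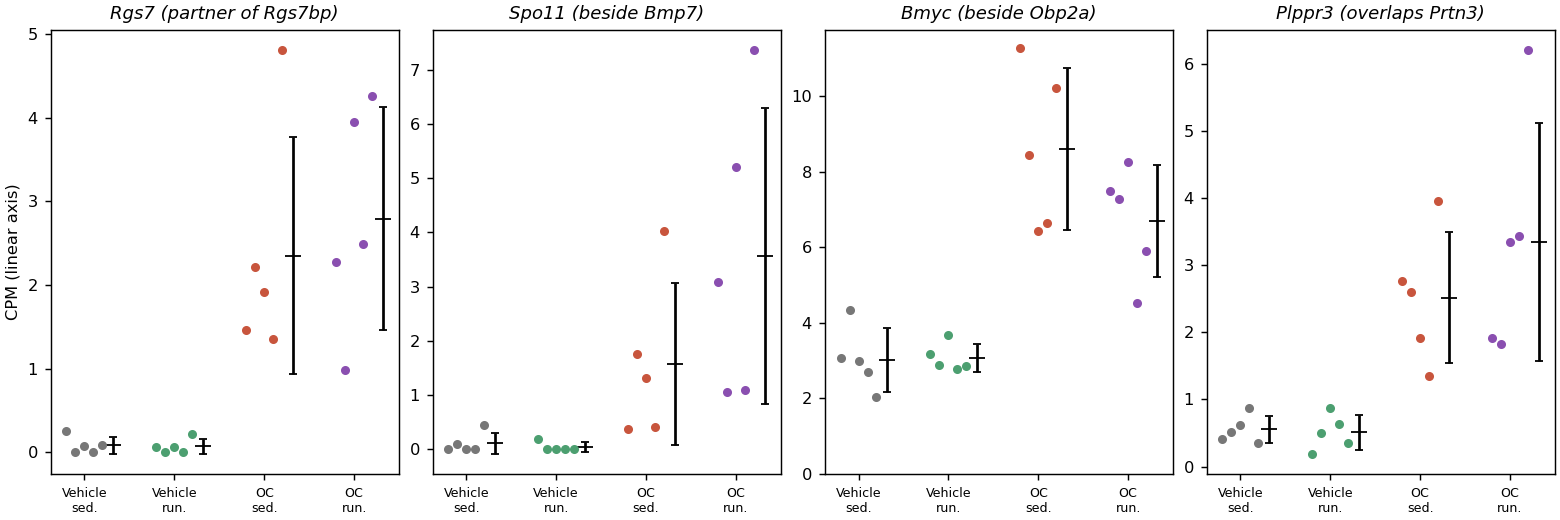
CPM in every mouse, on linear axes, of Rgs7, Spo11, Bmyc and Plppr3, which bind, neighbour or overlap Rgs7bp, Bmp7, Obp2a and Prtn3; black bars are the mean and SD of 5 mice. In each panel all 10 OC mice lie above the mean of the vehicle mice, and sedentary mouse 5 and running mouse 5 on OC are among the highest for Rgs7, Spo11 and Plppr3.

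By the likeness of their pattern over the 10 OC mice, 8843 genes were ranked against each of the 8 by Pearson r of log2 CPM, each taken as the deviation from its group mean. These values are given as a description, since the highest of so many are high by selection and all genes share the same libraries. The closest to Rgs7bp was Spry4 (r = 0.938), to Nebl Neb (0.929), to Bmp7 Siglece (0.946), to Obp2a Elp5 (0.968), to Asic2 Ift43 (0.956), to Epp13 Tmem62 (0.966), to Prtn3 Synj2 (0.966) and to Isyna1 Ttc23 (0.948). Among the 3 closest to each, the genes that also differed between diets in both activities in every alternative run were Bcl9 and Lifr for Bmp7, Mmd2 for Asic2, Capn8 for Epp13 and Synj2 for Prtn3. Lifr, the receptor of leukaemia inhibitory factor, rose from 281 ± 69.1 to 1704 ± 339 CPM in sedentary mice (log2 fold change 2.60, adjusted p = 3.05e-06) and from 322 ± 68.2 to 2097 ± 1081 CPM in running mice (2.70, adjusted p = 1.45e-06).

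Capn8, a calpain known from the stomach, followed Epp13 with r = 0.955. Capn8 had 6 counts over Con.Sed and 266 over OC.Sed (log2 fold change 5.19, adjusted p = 4.23e-05), a ratio of 91.4 (95% interval 25.1 to 758) without Con.Sed replicate 4. In running mice Capn8 had 2 counts on vehicle against 453 with the contraceptive diet, which gave a ratio of 227 (62.5 to 1879; adjusted p = 1.39e-06). Without Con.VWR replicate 1 or 4, which held 1 count each, that ratio was 354 or 374.

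The liver label was checked against marker genes. The 9 intact hepatocyte markers summed to 180202 to 246853 CPM on vehicle and 112078 to 155770 on OC. Of the 9, 1 was called higher and 4 lower in each activity. Without Con.Sed replicate 2, 5 were called lower in running mice. Beside these counts and those below, 9.11% of all tested genes were called higher and 7.20% lower in sedentary mice. In running mice the shares were 7.09% and 6.06%. Of 8 kidney and urinary markers, the 4 with intact lines were at 0 in every library, and the other listed ones could not be read. The 6 intact epididymal markers summed to 0 to 0.365 CPM. All mice were described as female, so low epididymal markers were given by the design. Neuron and Schwann cell markers summed to 9.30 to 23.7 CPM (median 14.4) in Con.Sed and 21.0 to 25.2 (median 21.7) in OC.Sed. In running mice the sums were 9.46 to 21.2 CPM (median 13.6) in Con.VWR and 10.2 to 25.1 (median 19.2) in OC.VWR. Of these markers Elavl4 was at 0 in all libraries, and neither of the 2 tested ones was called. Markers of stellate cells were called lower for 4 of 5 in sedentary and 2 of 5 in running mice, with sums of 265 to 494 CPM on vehicle and 192 to 325 on OC. Without Con.Sed replicate 2, 3 of 5 stellate markers were called lower in sedentary mice. The part of these shifts in the levels of the 8 genes was not tested.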

How the data were processed

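Liver RNA of 20 mice was sequenced as stranded mRNA libraries, per the labels' protocols. STAR, limma, R 4.05 and the mm10 build are named in the submitters' processing notes; the counting program, annotation and strand setting are not given in the sources used here. The values the authors deposited were treated as estimated counts for each gene with no scaling between libraries, since 2 unused lines held values that were not whole. Rounding altered none of the values used, and the planned test had assumed plain counts. Of the 35504 deposited lines, 11511 (32.4%) were displaced, mostly starting with a stray 1, and were left out. Replicates were numbered in accession order, and the labels say the mice were individuals.

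The 8 genes and all lists were chosen with earlier results of these data known. The test was that of edgeR 4.0.16, run in R 4.3.3. Its filterByExpr kept 10207 genes holding 99.95% of the counts, TMM set the scaling, and a quasi-likelihood model had 1 mean per group (common biological coefficient of variation 0.178). Adjusted p are Benjamini-Hochberg over all tested genes, with a threshold of 0.05, and SE is that of the fitted log2 fold change. Lists are described by counts and medians. The named genes were, besides the 8, the 3 tested genes most alike each of them, up to 4 called genes of each list and up to 3 uncalled ones, and called or nearest neighbours. Alternatives were DESeq2 1.42.0, other scalings and filters, and leaving out each library. The first and second principal components held 39.2% and 11.6% of the variance; the first separated the diets and the second set Con.Sed replicate 2 apart. Scripts were tested on simulated data.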

Additional observations from a re-analysis of the deposited data

Results flagged for a closer look

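In groups of 5 mice, 27 genes were checked for a mouse that stood far from the other 4 of its group, and 13 of 103 groups had one; chance flags about 1 in 20 groups of normally distributed values, a rate that 13 of 103 cannot be set against, since a single read can set a mouse apart in groups near 0 counts. Con.Sed replicate 5 stood above the other sedentary vehicle mice in Prtn3 at 2.38 CPM, against 0.0828 to 0.613 in the others, in Epp13 at 0.265 CPM, against 0, and in Spo11 at 0.441 CPM, against 0 to 0.0869. All 3 genes were low on vehicle and high on OC, and the 3 values in that library were below the OC range for Prtn3 and Epp13. Con.Sed replicate 2 stood apart in Nebl at 1.22 CPM, in Isyna1 at 11.7 CPM and in S100a9 at 4.78 CPM.

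On OC, Nebl was at 19.3 CPM in OC.Sed replicate 3, Obp2a at 12.5 CPM in OC.VWR replicate 3, Rgs7 at 4.81 CPM in OC.Sed replicate 5, Tmem98 at 13.7 CPM in OC.Sed replicate 1 and Hamp at 627.5 CPM in OC.VWR replicate 3, each above the other 4 mice of its group. In running vehicle mice, Spo11 was at 0.190 CPM in replicate 1, against 0 in the other 4, and Gdf2 at 22.2 CPM in replicate 4, below the other 4 at 29.1 to 31.6 CPM.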

How the results depend on the processing

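The count of genes called for OC was 1665 in sedentary mice and 1023 (without OC.Sed replicate 1) to 1794 with single libraries left out. In running mice it was 1343, and 817 (without OC.VWR replicate 1) to 1679, with 835 without OC.VWR replicate 3. For running on OC, edgeR called 0, DESeq2 called 1, Paqr9, and leaving out single libraries gave 0 to 1. For running on vehicle DESeq2 called 42. For the interaction DESeq2 called 119, and leaving out single libraries gave 0 to 2. In that DESeq2 contrast 8905 genes had no adjusted p, so the adjustment was over the others only. The cause of the differences between these counts was not tested. Of 60 calls of single named genes, 22 missed the threshold under at least 1 alternative, 10 of them with library totals in place of TMM, and 0 with DESeq2. With library totals the median log2 fold change of all genes moved to 0.10 in sedentary and 0.12 in running mice, and 82.6% and 80.6% of calls were higher on OC, against 55.9% and 53.9%. Of 776 alternative values of the 8 genes, 2 moved by more than 1 SD between mice, both for Prtn3 without Con.Sed replicate 5 (-1.06 for running on vehicle and 1.75 for the interaction). For Obp2a, whose SD was wider, leaving out OC.VWR replicate 3 took the running bound from 110 to 66.6 and the difference of running on OC from 0.20 to -0.55. Its sign also turned, to -0.01, without OC.Sed replicate 3. For genes at 0 to 3 vehicle counts, counting sets the size of the fold. No paired analysis was possible because the labels give no replicate numbers that groups share.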

Other observations

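Of the 51 tested genes with an OC mean at least 10 times the vehicle mean, 15 carry the symbol of a major urinary protein, carriers of pheromones that the liver secretes, and 28 are neither among the 8 nor in that family. Of the 598 tested genes under 1 CPM on vehicle, 38 (6.36%) reached at least 10 times that level on OC. Trex2 had 0 counts on vehicle, 86 over OC.Sed and 165 over OC.VWR. It was named after its values were seen.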
